A study of Homo sapiens with 8 samples.

Results

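The miR-25 and miR-92 family, with miR-32 and miR-363, is a set of microRNAs, small RNAs of about 22 bases, that carry the same seed. Members were chosen by name from the deposited table: miR-25-3p, miR-32-5p, miR-92a-3p (also under the copy names miR-92a-1-3p and miR-92a-2-3p), miR-92b-3p and miR-363-3p. Of the 7 names, 6 matched a row, out of 2867 entries of which 903 are known microRNAs. The row of miR-92a-2-3p repeated that of miR-92a-3p count for count in all 8 libraries, and the pair was treated as 1, so 5 distinct rows are described. miR-32-5p matched no row and is named only.

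Small RNA was sequenced from HEK293, an established human embryonic kidney cell line. One group of 4 libraries came from cells transfected with 100 nM of an ASO (antisense oligonucleotide, a synthetic strand that pairs with a chosen RNA), and the other 4 came from cells without ASO (controls), all collected after 48 h. The target named in the library names is miR-31, and the question posed was whether other RNAs were affected. The labels give neither a control ASO of another sequence nor a mock transfection, and whether each library is a separate culture is not stated, so a p-value here reflects the spread between libraries, which may be technical.

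A microRNA guides an Argonaute protein to messenger RNAs, mainly through its seed, bases 2 to 8 from the 5′ end, and lowers their stability and translation. Several genes of this family lie in clusters known to promote proliferation downstream of MYC and E2F: miR-92a-1 is the last hairpin of miR-17-92, miR-25 lies in miR-106b-25, and miR-92a-2 and miR-363 lie in the X-linked cluster miR-106a-363. Known targets of its seed include BCL2L11 (BIM) and CDKN1C (p57). miR-92a and miR-25 are also abundant in red blood cells.

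The mature sequences are shown because the shared seed, in capitals, defines the family, and the lower-case remainder is what allows reads of the members to be told apart. They are from RefSeq (GRCh38.p14), 5′ to 3′.
miR-92a-3p: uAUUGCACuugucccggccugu
miR-25-3p: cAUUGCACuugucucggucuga
miR-92b-3p: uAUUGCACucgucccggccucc
miR-363-3p: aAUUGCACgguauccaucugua
miR-32-5p: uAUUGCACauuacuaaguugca
All 5 carry the seed AUUGCAC, and 1 further RefSeq mature microRNA, miR-367-3p, has it too. miR-367-3p matched no row of the table and is named only. Counting positions from the 5′ end, miR-92b-3p differs from miR-92a-3p at 3 of 22 positions (U10C, G21C and U22C, miR-92a-3p base first). miR-25-3p differs from it at 4 positions (U1C, C14U, C18U and U22A). miR-363-3p differs from miR-92a-3p at 12 positions and miR-32-5p at 11, none of them in the seed. The sources used here do not give the number of mismatches the authors allowed, so how cleanly reads of miR-92a-3p, miR-92b-3p and miR-25-3p were separated cannot be told.

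miR-92a-3p is made from 2 hairpins. They are shown with the mature strand in capitals, because the entries named for the copies did not hold equal counts.
MIR92A1: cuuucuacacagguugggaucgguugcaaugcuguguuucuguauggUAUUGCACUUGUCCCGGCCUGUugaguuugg
MIR92A2: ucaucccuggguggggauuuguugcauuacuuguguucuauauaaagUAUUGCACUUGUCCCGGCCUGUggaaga
The hairpins share a run of 23 bases, which is the whole mature strand and 1 base before it. The first base after the mature strand is U in MIR92A1 and G in MIR92A2.

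In the RefSeq coordinates of GRCh38.p14, with host genes from GENCODE release 29, MIR92A1 lies on the plus strand at chr13:91351314-91351391 in an exon of MIR17HG, the long noncoding host of miR-17-92. MIR92A2 (chrX:134169538-134169612) and MIR363 (chrX:134169378-134169452) lie on the minus strand 85 bases apart, both within an exon of the noncoding transcript AC002407.1. MIR25 lies on the minus strand at chr7:100093560-100093643 in an intron of MCM7, which encodes a subunit of the replicative DNA helicase. MIR92B lies on the plus strand at chr1:155195177-155195272 in an exon of the noncoding gene AC234582.1. MIR32 lies on the minus strand at chr9:109046229-109046298 in an intron of TMEM245.

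Total counts per library ran from 8168828 to 11677123. Levels below are CPM (the count relative to the library total) scaled with TMM, and a mean ± SD is over n = 4 libraries of a group. Every member has a length of 22 bases in the table, so members can be set side by side without a length correction, though adapter ligation favours some sequences. Changes are log2 fold changes of ASO against control from edgeR's quasi-likelihood test over 745 entries, with Benjamini-Hochberg adjusted p-values and a threshold of 0.05. In that test 1 entry passed (0.134%). miR-31-5p, the named target, had a mean of 837 ± 166 CPM with ASO against 736 ± 305 CPM without (log2 fold change 0.19, adjusted p = 0.851), and it gave no check of the labels. Control 1 was its lowest library, at 350 CPM where the other controls held 657 to 1056 CPM, and without control 1 the log2 fold change was −0.04. Control 1 also stood apart for some entries below. All 6 microRNAs chosen as HEK293 markers were above 0 in every library, with a summed level by library total of 71105 to 80955 CPM with ASO and 74235 to 95746 CPM in controls. Of 4 red blood cell markers 2 had a row: miR-486-5p, at a mean of 82.1 CPM with ASO against 83.1 CPM without, and miR-144-5p, listed at 0 in 6 libraries. Of 4 white blood cell markers 2 had a row, and their summed level was at most 0.595 CPM with ASO and 1.05 CPM in controls. All 5 liver and muscle markers had a row, with a summed level of 32.1 to 46.9 CPM with ASO and 16.0 to 19.5 CPM in controls. Most of it was miR-122-5p, the liver microRNA, at 29.7 ± 7.34 CPM with ASO against 12.1 ± 2.02 CPM without, where all 4 ASO libraries lay above all controls (log2 fold change 1.30, adjusted p = 0.0516). Under the alternatives its adjusted p ran from 5.58e-06 with DESeq2 to 0.485 with edgeR and a replicate block. All 5 mesenchymal and endothelial markers had a row, with a summed level of 930 to 1021 CPM with ASO and 954 to 1029 CPM in controls, most of it the endothelial miR-126-3p at 862 ± 32.2 against 874 ± 52.5 CPM. The part of these other markers in the results below was not tested.

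miR-92a was the most abundant member. The libraries are bulk, so fewer cells with a microRNA and less of it per cell cannot be told apart. The miR-92a-1-3p entry ranked 3 of all entries by total count and the miR-92a-3p entry ranked 4. In ASO libraries 1 to 4, miR-92a-1-3p stood at 64449, 60593, 60959 and 57558 CPM. In control libraries 1 to 4 it stood at 50631, 59020, 60076 and 61767 CPM. Control 1 was lowest, and the other 3 controls lay within the ASO range, so the groups overlapped. The mean of the ASO libraries was 60890 ± 2820 CPM and that of the controls 57874 ± 4959 CPM. The fitted log2 fold change was 0.07, with an SE of 0.07, a 95% interval from −0.09 to 0.24 and an adjusted p of 0.716, and the adjusted p was between 0.426 and 0.893 under the alternatives tried.

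The miR-92a-3p entry had the same order of libraries within each group. It stood at 60602, 57048, 58492 and 53935 CPM in the ASO libraries (1 to 4 in order), and at 46802, 54948, 56276 and 57953 CPM in the controls (1 to 4). Its log2 fold change was 0.09 (SE 0.08, adjusted p = 0.638). Control 1 held 0.840 times the mean of the other 3 controls for miR-92a-1-3p and 0.830 times for miR-92a-3p. Without that library the log2 fold changes were 0.03 and 0.04.

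The 2 distinct miR-92a rows differed by a small and variable number of counts. miR-92a-1-3p exceeded miR-92a-3p by 37483, 41977, 27426 and 37297 counts in the ASO libraries (1 to 4 in order), and by 38588, 38085, 31523 and 43217 counts in the controls (1 to 4). The excess was always in the direction of the MIR92A1 name. As a share of the miR-92a-1-3p count it was 5.97%, 5.85%, 4.05% and 6.30% with ASO and 7.56%, 6.90%, 6.33% and 6.18% in controls. ASO 3 was lowest and control 1 highest, and the groups overlapped through ASO 4. The upper bound of the Wilson 95% interval was 4.09% for ASO 3, and the lower bound was 7.49% for control 1, so these libraries differed by more than counting error, which is all the interval covers.

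**Figure D1:**
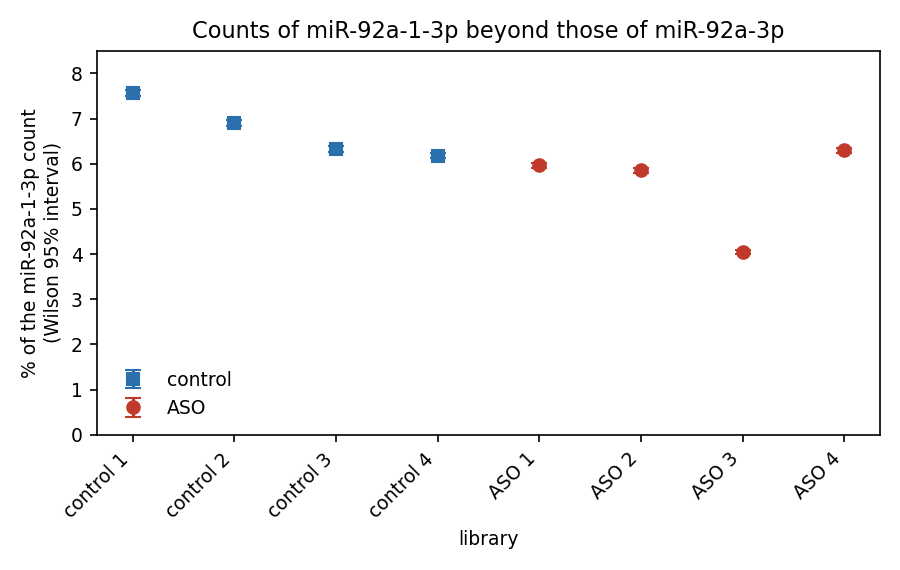
Each point is 1 library. The vertical axis gives the counts by which the miR-92a-1-3p entry exceeded the miR-92a-3p entry, as a percentage of the miR-92a-1-3p count, with Wilson 95% intervals; squares are controls and circles ASO libraries. Values ran from 4.05% in ASO 3 to 7.56% in control 1.

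The sources used here do not say how reads that match both hairpins were counted. The 3 miR-92a rows, the identical one included, took 16.9% to 17.8% of all counts in ASO libraries and 13.8% to 17.9% in controls, with control 1 the lowest. If 1 read can count in several of these rows, the library totals hold it several times, and every CPM is lowered with them. With miR-92a taken once, as miR-92a-1-3p, in both the sum and the total, the family held 10.2% ± 0.274 of counts with ASO and 9.77% ± 0.941 in controls (n = 4 each).

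miR-25-3p, excised from the MCM7 intron, was next in abundance and ranked 11. It stood at 24970, 29435, 25826 and 28879 CPM in ASO libraries 1 to 4. In control libraries 1 to 4 it stood at 27321, 27714, 28202 and 27518 CPM. The controls were close together and the ASO libraries lay on either side of them, with ASO 1 and 3 below and ASO 2 and 4 above. The mean of the ASO libraries was 27277 ± 2210 CPM and that of the controls 27688 ± 378 CPM. The fitted log2 fold change was −0.02, with an SE of 0.06, a 95% interval from −0.17 to 0.12 and an adjusted p of 0.947. Its sign turned when library totals were used without TMM (0.003) and when ASO 1 (0.03) or ASO 3 (0.04) was left out, so no direction can be given.

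miR-92b-3p, whose gene stands apart from the clusters and which is known from neural progenitors, stood at 1844, 1902, 1921 and 1833 CPM in ASO libraries 1 to 4. In control libraries 1 to 4 it stood at 1454, 1686, 1761 and 1831 CPM. All 4 ASO libraries were above all 4 controls, with ASO 4 and control 4 nearly equal. The mean of the ASO libraries was 1875 ± 43.4 CPM and that of the controls 1683 ± 164 CPM. The log2 fold change was 0.16 (SE 0.08, 95% interval −0.02 to 0.33), which is 1.11-fold, and did not pass (adjusted p = 0.445, or 0.170 to 0.697 under the alternatives). An exact two-sided permutation test of log2 levels gave p = 0.0286, the smallest that 70 arrangements allow. Of the 745 entries tested, 23 (3.09%) had all ASO libraries above all controls, and 62 (8.32%) had groups that did not overlap in either direction. When counts were scaled by library total without TMM the groups of miR-92b-3p overlapped, with ASO 1 at 1772 CPM and control 4 at 1847 CPM. Control 1 held 0.826 times the mean of the other 3 controls. Leaving it out gave a log2 fold change of 0.11.

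miR-363-3p, from the X-linked cluster, was the least abundant member. It stood at 619, 709, 593 and 720 CPM in ASO libraries 1 to 4. In control libraries 1 to 4 it stood at 754, 743, 746 and 701 CPM. ASO 1 and 3 were the lowest libraries, while ASO 2 and 4 overlapped with control 4. The mean of the ASO libraries was 660 ± 63.4 CPM and that of the controls 736 ± 23.7 CPM. The log2 fold change was −0.16 (SE 0.08, 95% interval −0.34 to 0.02), a fold of 0.897, and did not pass (adjusted p = 0.445, or 0.196 to 0.745 under the alternatives). The exact permutation p was 0.0857. Without ASO 3 the log2 fold change was −0.07. The lowest count, 6035 in ASO 1, has a Wilson 95% interval of 580 to 610 CPM before TMM scaling, so counting error was smaller than the spread between the ASO libraries.

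**Figure D2:**
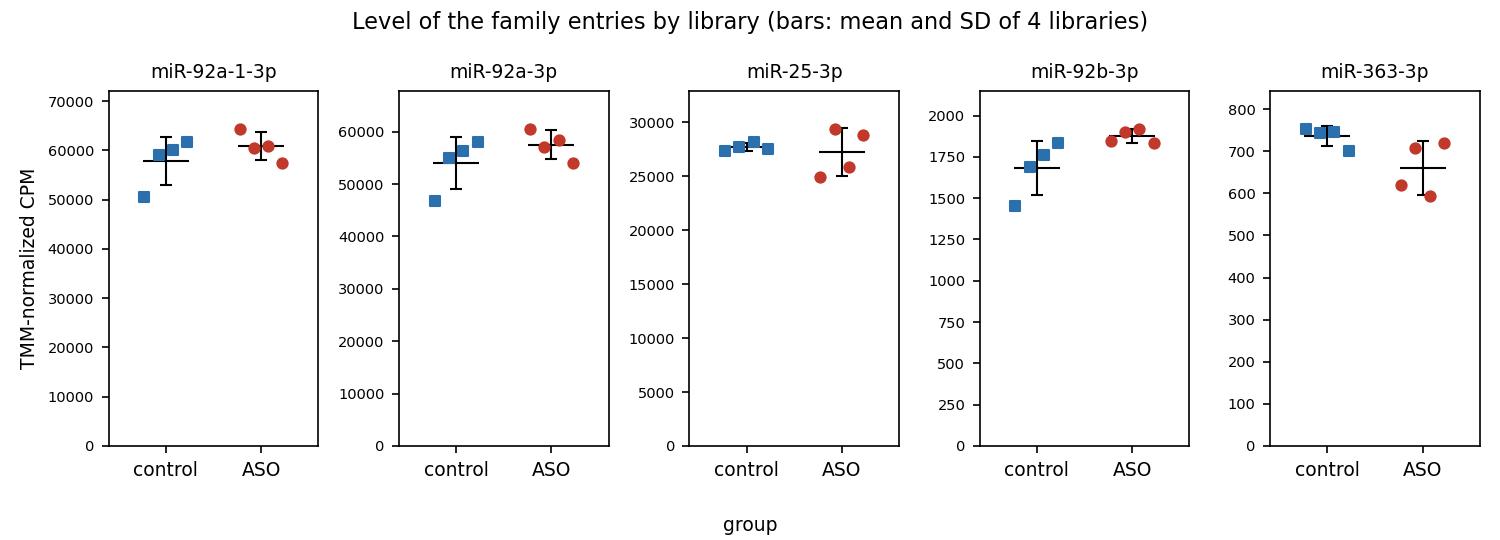
Each panel is 1 distinct family entry, with TMM-normalized CPM on a linear axis from 0 (the axes differ between panels). Points are libraries (squares controls, circles ASO) and bars the mean and SD of 4; the groups overlap in every panel but that of miR-92b-3p, where the ASO libraries span 1833 to 1921 CPM and the controls 1454 to 1831 CPM.

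In the order of levels, miR-92a-1-3p, miR-25-3p, miR-92b-3p and miR-363-3p had ranges over the 8 libraries that did not overlap one another. The miR-92a-3p and miR-92a-1-3p ranges did overlap. With miR-92a counted once, miR-92a made up 63.2% to 70.1% of the family's counts, miR-25-3p 27.2% to 34.1%, miR-92b-3p 1.81% to 2.15% and miR-363-3p 0.665% to 0.940%. The ratio of miR-92a-1-3p to miR-25-3p was 2.58, 2.06, 2.36 and 1.99 in the ASO libraries (1 to 4 in order), against 1.85, 2.13, 2.13 and 2.24 in the controls (1 to 4). The summed level of the 5 distinct rows was 148222 ± 4023 CPM with ASO against 141976 ± 10272 CPM without. It was 90702 ± 1830 and 87981 ± 5327 CPM with miR-92a taken once. The groups overlapped in each of these sums, and control 1 was the lowest library in both.

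In the comparison as a whole, 0 of the 5 distinct members passed the threshold, against 0.134% of all tested entries, and 0 of 5 had an unadjusted p under 0.05, against 10.5% of entries. DESeq2 called 0 of the 5, where it called 21 of all 745 entries. It gave miR-92b-3p and miR-363-3p an unadjusted p of 0.0243 and 0.0406. The share of all entries with an unadjusted DESeq2 p under 0.05 was not counted, and the 10.5% is from edgeR. Of the 5, 3 had a log2 fold change above 0, where 51.7% of all entries did, and the median of the 5 was 0.07 against 0.01 over all entries. The 3 were miR-92a-1-3p (0.07), miR-92a-3p (0.09) and miR-92b-3p (0.16). Both miR-92a rows hold 1 mature sequence, so that microRNA enters this count and the median more than once. Groups that did not overlap were found for 1 of 5, against 8.32% of entries. The 95% intervals of the fold ran from 0.937 to 1.18 for miR-92a-1-3p, 0.943 to 1.20 for miR-92a-3p, 0.891 to 1.09 for miR-25-3p, 0.987 to 1.26 for miR-92b-3p and 0.792 to 1.02 for miR-363-3p.

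**Figure D3:**
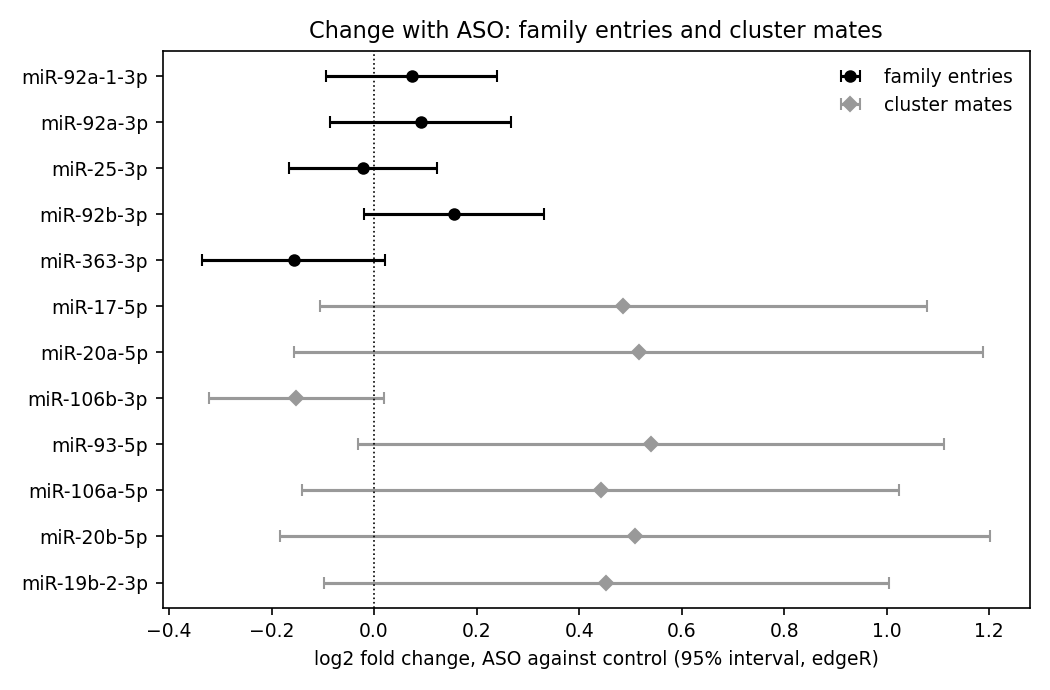
The horizontal axis gives the log2 fold change of ASO against control with its 95% interval from edgeR; black circles are the 5 distinct family entries and grey diamonds the tested cluster mates that were above 0 in all libraries. All intervals include 0, and those of the family entries are narrower than those of every mate but miR-106b-3p.

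The members did not all vary together over the 8 libraries. On log2 levels miR-92a-3p and miR-92b-3p had a Pearson r of 0.89, and miR-25-3p and miR-363-3p of 0.75. MIR92A2 and MIR363 are neighbours, but MIR92A1 gives the same mature strand as MIR92A2, so no miR-92a row can be read as MIR92A2 alone. miR-92a-3p had an r of −0.33 with miR-25-3p and of −0.65 with miR-363-3p. Without control 1 these values were 0.49, 0.82, −0.77 and −0.77. The miR-92a-1-3p row had an r of 0.86 with miR-92b-3p, −0.31 with miR-25-3p and −0.59 with miR-363-3p. Without control 1 the values for that row were 0.33, −0.73 and −0.63. These are descriptions over n = 8 libraries that share scaling and group, and miR-92a is itself a large part of the total that scales the rest.

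The hairpins of each of these clusters are cut from shared primary transcripts, so the other microRNAs of these clusters were set beside the family. Of 11 cluster mates with a row, 9 were tested and 0 passed the threshold (adjusted p 0.445 to 0.860). Of these 9, 0 had an unadjusted p under 0.05, against 10.5% of all entries, and 7 had a log2 fold change above 0, with a median of 0.49, against 51.7% of all entries and a median of 0.01. Over the 7 mates above 0 in all libraries the median was also 0.49, and it was 0.31 without control 1.

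In 6 of the 7 tested mates above 0 in all libraries, the highest level was 2.67 to 3.11 times the lowest, where that ratio was 1.33 for miR-106b-3p, the other mate, and 1.18 to 1.32 for the members. miR-20a-5p, the most abundant mate from miR-17-92 and a repressor of E2F1, stood at 3462, 5145, 5041 and 3251 CPM in the ASO libraries (1 to 4 in order), and at 1652, 2714, 3477 and 3974 CPM in the controls (1 to 4). Its ratio of highest to lowest was 3.11, against 1.27 for miR-92a-1-3p, with control 1 the lowest library of both. miR-17-5p, which had the smallest p of the miR-17-92 mates, had a mean of 3346 ± 651 CPM with ASO against 2389 ± 744 CPM without (log2 fold change 0.49, SE 0.25, adjusted p = 0.464).

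miR-93-5p, from the MCM7 intron with miR-25, stood at 7280, 9743, 9467 and 6789 CPM in the ASO libraries (1 to 4 in order), and at 3483, 5256, 6556 and 7584 CPM in the controls (1 to 4). The groups overlapped, and the log2 fold change was 0.54 (SE 0.25, adjusted p = 0.445). The ratio of miR-25-3p to miR-93-5p counts ran from 2.73 in ASO 3 to 7.84 in control 1. miR-106b-3p, from the remaining hairpin of that intron, varied less: its mean was 3429 ± 215 CPM with ASO against 3809 ± 297 CPM without (log2 fold change −0.15, SE 0.07, adjusted p = 0.445), and the ratio of miR-25-3p to it ran from 6.55 to 8.21. Control 1 was its highest library, and without it the log2 fold change was −0.09.

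From the X-linked cluster, miR-106a-5p, the most abundant mate, had a mean of 129 ± 25.3 CPM with ASO against 94.6 ± 29.8 CPM without (log2 fold change 0.44, adjusted p = 0.487). miR-19b-2-3p, a member of the miR-19 family, averaged 129 ± 15.3 and 93.9 ± 28.5 CPM (log2 fold change 0.45, adjusted p = 0.464). An entry for the other miR-19b copy, miR-19b-1-3p of miR-17-92, was also listed. How reads matching both copies were counted is not stated, so the miR-19b-2-3p row cannot be read as the X-linked cluster alone. The ratio of miR-363-3p to miR-106a-5p ran from 4.32 in ASO 2 to 12.8 in control 1.

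Control 1 was low among the mates. In the 6 mates above 0 in all libraries other than miR-106b-3p, it held 0.487 to 0.553 times the mean of the other 3 controls, where the family entries held 0.826 to 1.03 times. Without control 1 the log2 fold changes of these 6 were 0.27 to 0.38, against 0.44 to 0.54 with it. Control 1 also stood apart outside these clusters. For miR-590-3p it held 18.2 CPM, where controls 2 to 4 held 35.5, 40.5 and 46.0 CPM. Relative to the mean of the other 3 controls it held 0.190 times for miR-199a-3p, but 1.51 times for miR-10b-5p. How many of all entries were low in control 1 was not counted, and the cause was not tested.

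**Figure D4:**
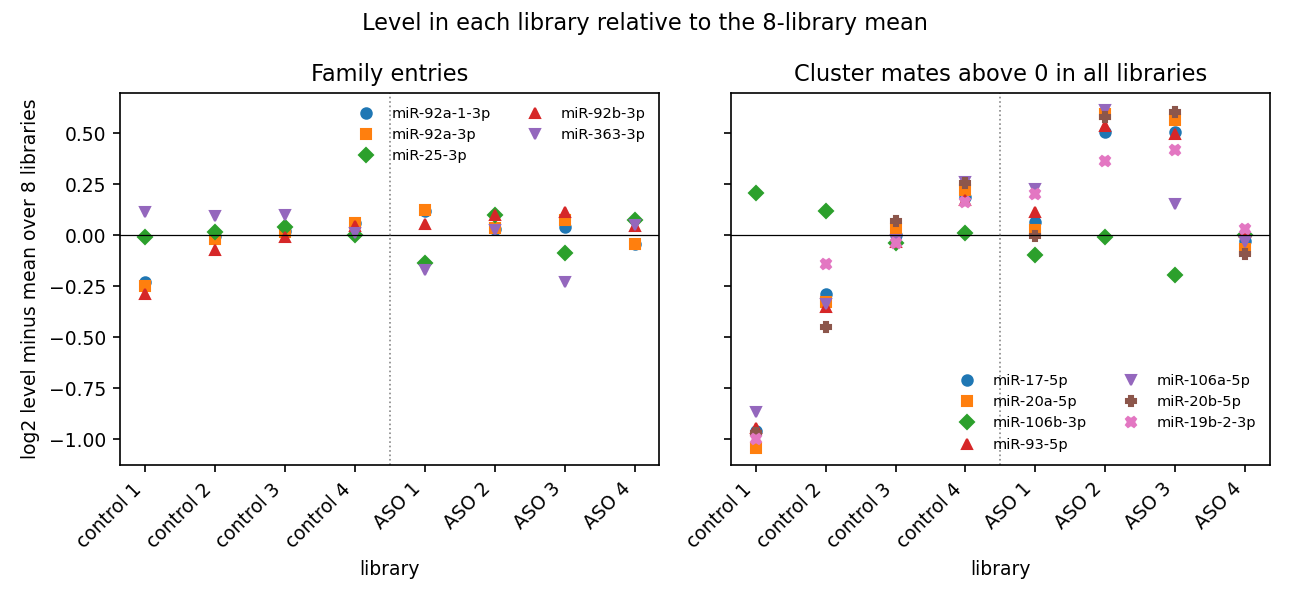
The vertical axis gives the log2 TMM-normalized level in each library minus the mean of that entry over the 8 libraries; the left panel holds the 5 distinct family entries and the right panel the 7 cluster mates above 0 in all libraries. In control 1 the mates other than miR-106b-3p hold 0.487 to 0.553 times their mean in the other controls and are the lowest points of the right panel, while the family entries hold 0.826 to 1.03 times.

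The spread between libraries can be set beside that of other abundant entries. Of the 179 tested entries with a mean count of at least 1000, the median SD of log2(CPM + 1) over the 8 libraries was 0.18. It was 0.08 for miR-25-3p, 0.10 for miR-92a-1-3p, 0.11 for miR-92a-3p and 0.13 for miR-92b-3p and miR-363-3p. A smaller SD was found in 15 of the 179 for miR-25-3p and in 58 for miR-92b-3p, the member with the widest spread. For miR-20a-5p it was 0.52.

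**Figure D5:**
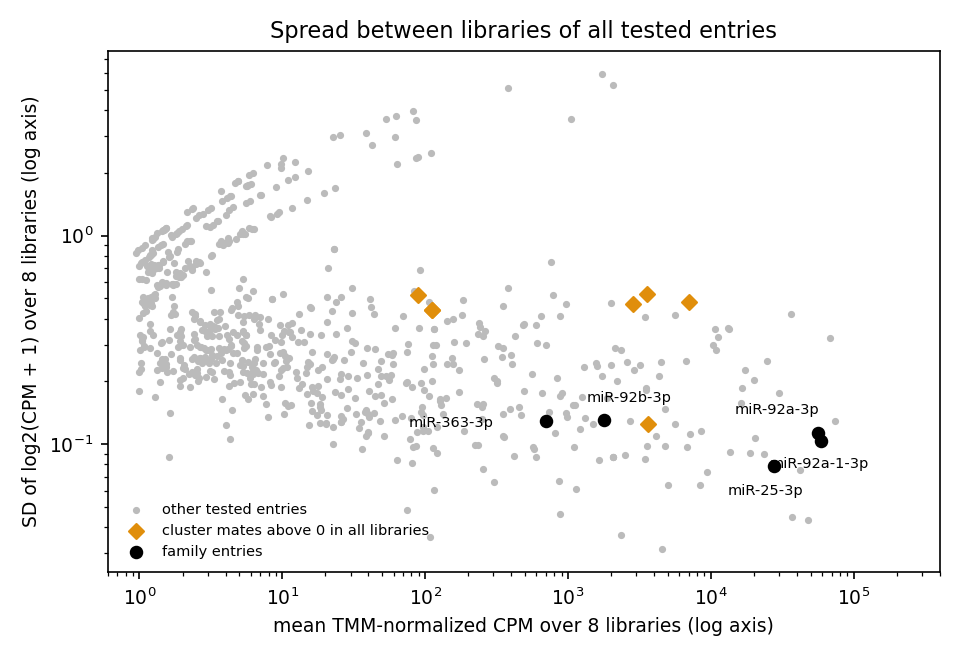
Each point is a tested entry, with its mean TMM-normalized CPM over the 8 libraries on a log axis and the SD of log2(CPM + 1) over the libraries on a log axis. The family entries (black) have SDs of 0.08 to 0.13, and 6 of the 7 cluster mates (orange) lie above 0.4.

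Of 6 opposite arms of the family's hairpins, 1 had a row, miR-32-3p. Its mature sequence in RefSeq, given with bases 2 to 8 in capitals to show that this arm has another seed, is as follows.
miR-32-3p: cAAUUUAGugugugugauauuu
The table gives it a length of 21, where the RefSeq sequence has 22 bases. It stood at 128, 107, 107 and 117 CPM in the ASO libraries (1 to 4 in order), and at 116, 119, 111 and 105 CPM in the controls (1 to 4). The groups overlapped (log2 fold change 0.02, SE 0.08, adjusted p = 0.960). The MIR32 hairpin thus had counts from this arm in every library, and the arm with the family's seed has no value here.

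Among 314 known microRNAs with a mean count of at least 100, those whose log2 level over the 8 libraries was most like miR-92a-1-3p were let-7g-5p (r = 0.95), miR-181d-5p (0.95) and miR-590-3p (0.94). For miR-92a-3p they were miR-181d-5p (0.97), miR-590-3p (0.96) and miR-34a-5p (0.96). miR-92b-3p was most like miR-15a-5p, let-7d-5p and miR-23b-3p (each 0.99). miR-363-3p was most like miR-1260a, miR-1260b (each 0.92) and miR-744-5p (0.91). For miR-25-3p the nearest, miR-193a-5p (0.79), miR-320b (0.74) and miR-597-3p (0.72), had lower values, which were 0.76 to 0.88 without control 1. Without control 1 the values were 0.72 to 0.81 for miR-92a-1-3p, 0.80 to 0.88 for miR-92a-3p, 0.97 to 0.98 for miR-92b-3p and 0.89 to 0.91 for miR-363-3p. These are the highest of 314 values over n = 8 libraries that share scaling and group, and nothing is read from them.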

How the data were processed

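The members and lists were chosen with earlier results of these data known. Small RNA was read from 8 HEK293 libraries (4 ASO, 4 control), grouped by their titles. The authors deposited 1 table with a whole-number count per entry and library, not normalized. It also holds 8 columns headed TPM that the deposited values show to be CPM (count per library total, within 0.223 CPM). The submitters' processing notes name bcl2fastq 2.20, Trimmomatic 0.30, edgeR 3.4.6 and GRCh38; the sources used here give no aligner, counter or annotation. The deposited length of each entry is 18 to 25 bases.

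The 745 entries tested were above 0 in 4 or more libraries and had a mean count of 10 or more. The test was edgeR 4.0.16 (R 4.3.3) with TMM, a trended dispersion and a two-sided quasi-likelihood test; the SE is the log2 fold change divided by the square root of F. The script was tested on simulated data. DESeq2 1.42.0, other scaling and filters, left-out libraries, a replicate block, collapsed duplicates and known entries alone were alternatives; exact permutation tests used log2(CPM + 1) with scipy 1.17.1. The summed level, ratios and correlations were computed as descriptions. Named microRNAs were all members, opposite arms with a row, the most abundant and smallest-p cluster mate of each cluster, and the 3 most alike entries. The mates miR-106b-3p, miR-20b-5p, miR-18a-5p, miR-19a-3p and miR-19b-1-3p, and the marker microRNAs named one by one, were added after their values were seen. Totals of 8168828 to 11677123 make 3 counts, the limit a count of 0 allows, 0.257 to 0.367 CPM; counting error alone sets that limit and the Wilson intervals, while intervals of fold changes also hold the spread between libraries.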

Additional observations from a re-analysis of the deposited data

How the results depend on the processing

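The count of entries past the threshold over the whole table was 1 (0 higher, 1 lower). It was 5 with a mean count of at least 100, 21 with DESeq2, 4 with identical entries collapsed, 4 with known microRNAs only, 0 with no low-count filter and 0 with a replicate block on the library number; leaving out 1 library moved it between 0 and 5. In each of these settings, 0 of the 5 distinct family entries passed. The fold change of miR-25-3p changed sign with library totals without TMM (0.0027), and when 1 library was left out it ran from −0.061 to 0.040. miR-92a-1-3p kept its sign in 18 of 18 settings (0.03 to 0.11), miR-92a-3p in 17 of 17 (0.04 to 0.12), miR-92b-3p in 18 of 18 (0.11 to 0.19) and miR-363-3p in 18 of 18 (−0.20 to −0.07). The exact permutation test put miR-92b-3p under 0.05, unadjusted, which follows from its groups not overlapping. By library totals without TMM those groups overlapped. The summed level moved to 90702 CPM with ASO and 87981 CPM in controls with the larger miR-92a row alone, by construction. Pairing by library number was not shown, and this check cannot exclude it: 1 of 4 numbers had a correlation over 0.1 and 1 of 4 ASO libraries correlated best with its own number. The highest correlation, 0.297, was that of ASO 3 with control 3. The replicate block gave log2 fold changes of 0.08, 0.09, −0.03, 0.16 and −0.16 for miR-92a-1-3p, miR-92a-3p, miR-25-3p, miR-92b-3p and miR-363-3p. With 4 libraries a group, intervals of the members still span folds of 0.792 to 1.26.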

Other observations

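Several cluster mates were listed at 0 in some libraries and held many counts in others. miR-18a-5p of miR-17-92 had 1560 counts in ASO 3, 1043 in control 2, 1035 in control 3 and 1434 in control 4, and was listed at 0 in the other 4 libraries. miR-19a-3p, of the miR-19 family, had 2143 counts in ASO 3 and was listed at 0 in the other 7. miR-19b-1-3p had 907 counts in control 2 and 867 in control 3 and was listed at 0 in the other 6, while miR-19b-2-3p, the entry named for the second miR-19b hairpin, had 911 and 866 counts in those 2 libraries and between 541 and 1635 in the other 6. How reads matching both miR-19b hairpins were counted is not stated, so neither row can be read as 1 hairpin alone. Every distinct entry of the miR-25 and miR-92 family with a row, miR-363-3p included, had at least 6035 counts in every library. Counts in every library did not set the family apart, since 7 of the 9 tested cluster mates had them too. Among those mates, miR-20b-5p had 434 counts in control 1. The family member miR-32-5p matched no row, while miR-32-3p, from the same hairpin, had between 924 and 1263 counts. ASO 3, the 1 library with counts for miR-19a-3p, was also the library in which miR-92a-1-3p exceeded miR-92a-3p by the smallest share, 4.05%. In controls 2 to 4, which had counts for miR-18a-5p, that share was 6.90%, 6.33% and 6.18%. Any link between these values was not tested.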
